A study of Mus musculus with 31 samples.

Results

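Uterine RNA of mice with the AF2 form of estrogen receptor α was compared with that of wild-type mice while both were under estradiol. The 2 groups were taken from their labels: AF2 KO E2 holds 3 arrays and AF2 WT E2 holds 4, which makes 7 of the 31 arrays in the series. Every non-control probe was used, and 26872 genes passed a filter for signal. In both groups the mice were on the C57BL6/J background, had lost their ovaries at 4 weeks of age and had rested for 3 weeks on normal chow. They received 17β-estradiol (E2) at 8 µg/kg under the skin in castor oil, and the uterus was taken 6 h later. The placebo groups of the same line, AF2 KO PLB and AF2 WT PLB with 4 arrays each, received a dose of 0 µg/kg. The other line of the series, MISS, has a C57BL6/N background, and its MISS KO E2 and MISS WT E2 groups hold 4 arrays each.

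Estrogen receptor α is a transcription factor that is switched on by estradiol. It carries one activation function near its start, AF1, and a second, AF2, in the domain that binds the hormone. When estradiol binds, AF2 folds into a surface to which coactivator proteins dock. The labels do not describe the alleles. As known from other work, the receptor of AF2 mice still binds hormone and DNA but lacks this surface, and that of MISS mice does not reach the cell membrane. Both are germline changes that all tissues carry. In a uterus without ovaries, an injection of estradiol is known to set off vessel leakage, water uptake and a wave of RNA and protein synthesis within hours. Division of the epithelium follows later.

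Levels below are log2 intensities relative to the 75th percentile of their own array, and a difference is the AF2 KO E2 mean minus the AF2 WT E2 mean, with its standard error. A gene was called at an adjusted p under 0.05 (limma, Benjamini-Hochberg over all genes tested). That percentile ran from 474.7 to 701.7 in the mutant arrays and from 539.4 to 781.5 in the wild-type arrays, and no spot was saturated. Between 71.18% and 77.08% of probes were well above background in the mutant, and between 64.9% and 72.17% in the wild type. Levels correlated at 0.984 to 0.990 across genes between mutant arrays, at 0.984 to 0.992 between wild-type arrays and at 0.930 to 0.946 between a mutant and a wild-type array. The labels do not say that each array is 1 mouse, so p-values measure the spread between these samples. All arrays were scanned on 1 date on 4 slides, of which 3 hold both groups.

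The mutant uterus under estradiol differed from the wild type across much of the measured genome. Of the 26872 genes, 56.9% were called, 30% (8068) higher and 26.9% (7235) lower in the mutant. Counts of called genes in the lists below stand against these shares. A change of 2-fold or more was found for 4144 higher and 3139 lower genes. The largest differences were on the lower side: 121 genes fell by 4 or more on the log2 scale and 37 rose by as much. At 6 or more the counts were 32 lower and 4 higher. The median over all genes was 0.08 and the median size of a difference 0.56. The balance of the 2 directions depends on the scaling: the share of calls that were higher was 52.7%, against 39.6% when each array was centred on its median and 64.1% when the percentile was taken over probes above background on every array. These scalings put the median of all genes at −0.13 and 0.27.

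**Figure D1:**
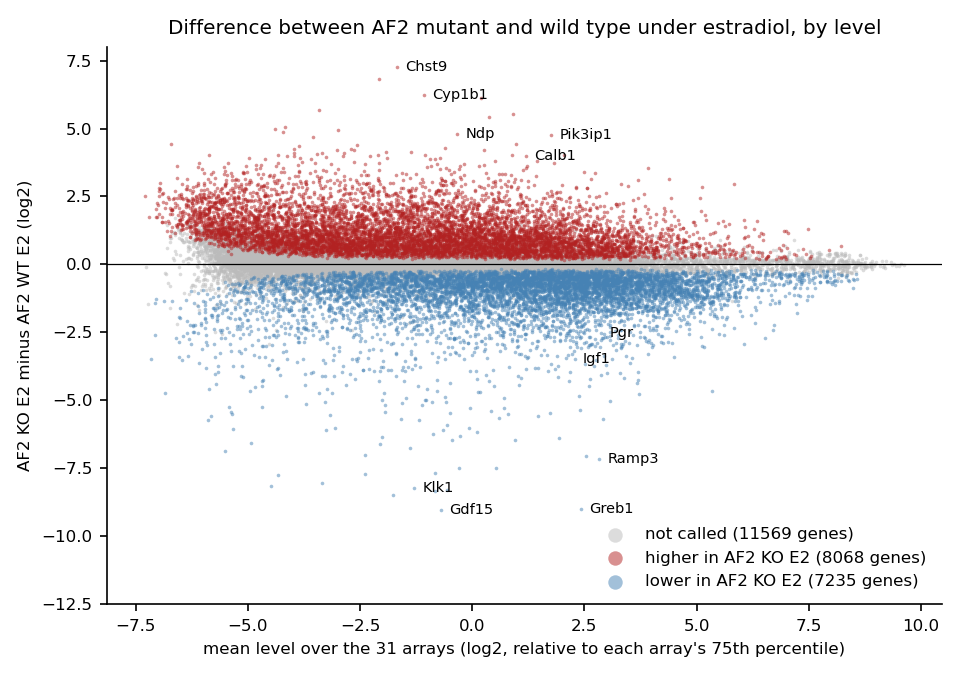
Each point is 1 of the 26872 tested genes, with its mean level over all 31 arrays (log2, relative to the 75th percentile of each array) on the x axis and AF2 KO E2 minus AF2 WT E2 (log2) on the y axis. Genes called higher (8068) are red, genes called lower (7235) blue and the rest grey; Gdf15 and Greb1 lie lowest, near −9.

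The mutant arrays lay close to uteri that had received no hormone. Taken gene by gene, the median distance of the AF2 KO E2 mean was 0.562 from AF2 WT E2, 0.163 from AF2 KO PLB and 0.131 from AF2 WT PLB. Means were 2-fold or more apart for 7577 genes against AF2 WT E2, for 1116 against AF2 KO PLB and for 614 against AF2 WT PLB. Among the 16343 genes with a mean level of at least −2 these counts were 4592, 176 and 240. The order of the 2 placebo groups in such counts thus depends on dim genes. Estradiol against placebo called 990 genes within the mutant (3.68%) and 15489 within the wild type (57.6%). Those responses share arrays with the comparison described here, so they are given only as values beside it.

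The gene with the largest difference was Gdf15, a secreted stress cytokine (probe on chromosome 8, 73153293 to 73153352, mm9). Its level was −4.20, −2.78 and −4.64 on the mutant arrays and 5.34, 4.96, 5.55 and 4.83 on the wild-type arrays. The groups were far apart, with a difference of −9.04 ± 0.31, which is 527-fold lower in the mutant (adjusted p = 3.21e-18). Under placebo the mutant and wild type differed by only 0.10 (adjusted p = 0.894).

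Greb1, a chromatin-bound partner of the receptor and one of its best known targets, stood next (chromosome 12, 16678455 to 16678514, mm9). The mutant arrays read −1.54, −2.38 and −3.10 and the wild-type arrays 7.09, 6.58, 6.89 and 6.17. The difference was −9.02 ± 0.48 (518-fold lower, adjusted p = 1.78e-14). Unlike Gdf15, it was already lower in the mutant under placebo, by −5.53, and the gap was wider with hormone by −3.49 (adjusted p of that change = 8e-05).

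Klk1, the tissue kallikrein that releases kinins, was at −5.11, −4.76 and −5.11 in the mutant and at 3.32, 3.13, 3.29 and 3.22 in the wild type. The groups were far apart, with a difference of −8.23 ± 0.19. Its relatives Klk1b26 and Klk1b5 were lower by −7.66 and −7.50, and Klk1b27 was called lower too. They are near-identical copies on chromosome 7 and their probes may read one another. Klk1b27 was not well above background on any mutant array, so only a bound holds for it, at least 75.9-fold lower.

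Ramp3 makes a partner protein of the receptors for calcitonin-like peptides. On the mutant arrays it read −0.26, −0.33 and −0.58, and on the wild-type arrays 7.21, 6.74, 6.90 and 6.24. That is 143-fold lower in the mutant (−7.16 ± 0.34). Scube1, which encodes a secreted and cell surface protein, was 180-fold lower, at −2.89, −1.28 and −3.33 against 4.96, 5.09, 4.94 and 4.99. Lrtm2 was not well above background on any mutant array but was on every wild-type array, at least 83.5-fold lower. Krt87, a hair keratin, was above background on 1 mutant array and on 4 wild-type arrays, with a difference of −8.05. Ppp2r2c, a regulatory subunit of protein phosphatase 2A, and Tmem213 were 320-fold and 316-fold lower.

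**Figure D2:**
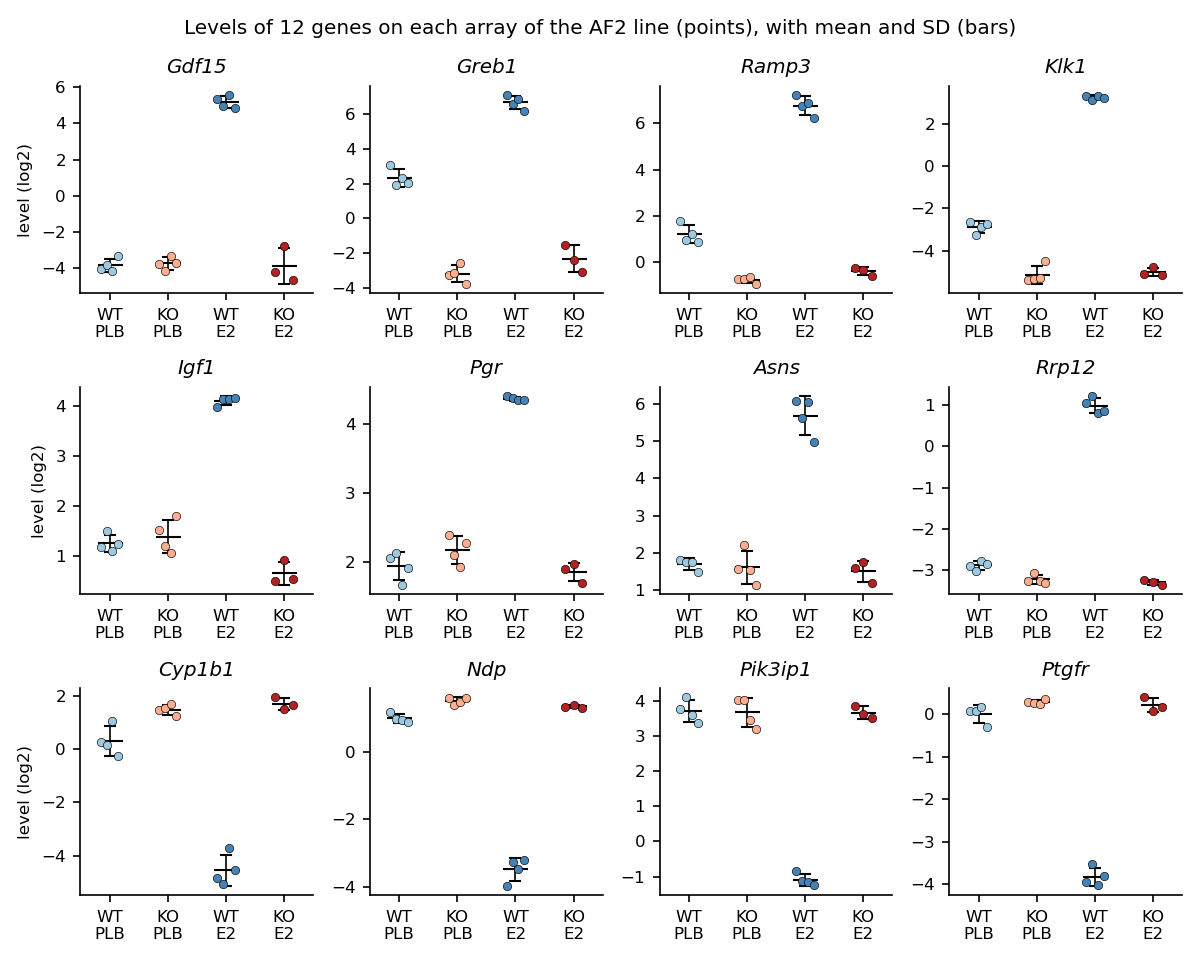
Levels of 12 genes (log2, relative to the 75th percentile of each array) on every array of the 4 AF2 groups; points are arrays, bars the mean and SD (n = 4, and 3 for KO E2). In all 12 panels the WT E2 arrays stand apart from the KO E2 arrays, which lie near the KO PLB arrays.

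On the higher side the largest difference was that of Chst9, a sulfotransferase that modifies sugars on glycoprotein hormones, at 7.28 ± 0.39. It was well above background on 1 of 4 wild-type arrays, with a wild-type mean of −6.11 (SD 1.19), so its size is uncertain. A second, less extreme Chst9 probe was higher by 2.19 ± 0.23, from a wild-type mean of −2.24. Cyp1b1, a cytochrome P450 that hydroxylates estradiol, read 1.93, 1.51 and 1.63 in the mutant and −4.84, −5.06, −3.73 and −4.54 in the wild type (chromosome 17, 80106547 to 80106606, mm9). It was 75.4-fold higher in the mutant (6.24 ± 0.39, adjusted p = 3.5e-13), with a gap under placebo of 1.18.

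Pik3ip1, an inhibitor of PI3 kinase, read 3.87, 3.63 and 3.51 against −0.85, −1.13, −1.14 and −1.24, which is 27.1-fold higher. Its placebo difference was −0.02. Ndp, the secreted ligand norrin of the Wnt receptor pathway, was 28.1-fold higher, at 1.33, 1.39 and 1.31 against −3.95, −3.27, −3.46 and −3.21.

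The sodium-coupled carriers Slc5a11, for inositol, and Slc13a5, for citrate, were higher by 6.11 ± 0.54 and 4.42 ± 0.48. Both were also higher without hormone, by 3.67 and 2.59. The tight junction gene Cldn1 was higher by 5.70 and was above background on 1 wild-type array. For genes dim on all 4 wild-type arrays only bounds hold: Ptgdr, the prostaglandin D2 receptor, was at least 11.7-fold higher. Msc, a transcription repressor, was at least 14.5-fold higher and Hcar1, the lactate receptor, at least 8.08-fold higher.

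The sources used here do not place the altered part of the allele, so whether a probe of the receptor gene marks it is unknown and no genotype was checked. The brightest Esr1 probe (chromosome 10, 5343056 to 5343115, mm9) read 2.80, 3.04 and 2.97 in the mutant and 3.03, 3.14, 3.06 and 3.65 in the wild type. The groups overlapped and the difference was −0.28 (adjusted p = 0.0706). It was called without wild-type replicate 1 (−0.35) or 3 (−0.34), under median scaling (−0.50), with slide as a block (−0.31) and with the probes of the gene averaged (−0.61). A second probe, at 5379218 to 5379277, was lower in the mutant by −1.28 under estradiol and by −1.75 under placebo. A probe at 5489352 to 5489411 was lower by −0.47 under estradiol, with a placebo difference of 0.21, and one at 5345046 to 5345105 was not called in either state (−0.40 and −0.13). In the 5 Mb on either side of Esr1, 41 of 62 tested genes were called (66.1%), against 56.9% of all genes. Within 20 Mb the count was 93 of 163 (57.1%).

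Among 11 steroid receptor genes 6 were higher and 1 lower. The progesterone receptor gene Pgr was the lower one, at 1.89, 1.96 and 1.70 against 4.40, 4.38, 4.34 and 4.35. It was 5.73-fold lower (−2.52 ± 0.12), and all 3 of its tested probes were called lower. Gper1, a membrane receptor reported to bind estrogen, was higher by 2.21 ± 0.21, Esrrb by 1.16, the mineralocorticoid receptor gene Nr3c2 by 0.99 and Nr2f2 by 0.95. The glucocorticoid receptor gene Nr3c1 was higher by 0.61 and Nr2f1 by 0.42. Esr2, which encodes estrogen receptor β, differed by 0.02, with a 95% interval of −0.19 to 0.22. Esrra was not called, at 0.04. The call of Nr2f1 was lost without wild-type replicate 4 (0.27) or any single mutant array (0.40 to 0.43), and Esr2 was called higher under quantile scaling (0.37).

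Of 21 tested cofactors of such receptors 9 were lower and 4 higher. Nrip1, a corepressor that docks on AF2, read 1.77, 1.60 and 1.88 in the mutant and 3.90, 4.00, 3.93 and 4.22 in the wild type. This is a difference of −2.26 ± 0.10 with no overlap. The methyltransferase gene Prmt1 was lower by −1.57. In the other direction Ppargc1a, the coactivator of mitochondrial genes, was higher by 2.89 ± 0.21. Of the p160 coactivators, which dock on AF2, Ncoa2 was higher by 0.81, while Ncoa1 (−0.02) and Ncoa3 (0.26) were not called. Ncoa1 was called higher under quantile scaling (0.31). Ncoa3 was called higher under it (0.66), with slide as a block (0.29) and without wild-type replicate 1 (0.34) or mutant replicate 2 (0.37), but with its probes averaged it was called lower (−0.24).

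Genes known as estradiol targets in the uterus made up the list with the lowest median, −3.31. Of 38 listed genes 36 passed the filter, and of these 28 were lower, 3 higher and 5 not called, against 26.9% lower and 30% higher over all genes. Every mutant array lay below or above every wild-type array for 31 of the 36, against 54% of all genes. The median level of the list was −0.03 to 0.43 on the mutant arrays and 3.46 to 4.00 on the wild-type arrays. The list was drawn from knowledge of wild-type responses, so its direction is no independent evidence.

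The list holds several secreted signals. Inhbb, a chain of inhibin and activin B, read 0.94, 0.43 and 0.40 against 6.53, 6.15, 6.41 and 6.03, or 51.6-fold lower. Igf1, the growth factor that carries estrogen signals from stroma to epithelium, was at 0.51, 0.91 and 0.54 in the mutant and at 4.00, 4.14, 4.16 and 4.17 in the wild type. It was 11-fold lower (−3.47 ± 0.14), and all 5 of its probes agreed in direction. Wnt4, a ligand of stromal and epithelial signalling, was at 1.64, 1.62 and 0.58 against 5.47, 5.80, 5.07 and 5.10 (−4.08 ± 0.25). Stc2, a secreted glycoprotein, was lower by −2.67.

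The oxytocin receptor gene Oxtr was at −1.59, −0.92 and −1.07 in the mutant and at 4.62, 4.42, 4.48 and 4.07 in the wild type, which is 48-fold lower. Padi1, Padi2 and Padi4, which turn protein arginine into citrulline, were lower by −7.04, −5.49 and −3.30. The cornified envelope genes Sprr2f, Sprr2d and Sprr2b were lower by −4.98, −2.33 and −1.62, each dim on part of the arrays. Sprr2b was well above background on 1 mutant array and on no wild-type array. They are close copies of one another. Mad2l1, of the spindle checkpoint, was 44-fold lower, and Rasd1, a small GTPase, lower by −4.14. The gap junction gene Gjb2 was lower by −3.33, Txnrd1 by −1.48, Ccn1 by −1.17 and Muc1 by −1.07. The call of Sprr2b was lost without mutant replicate 1 (−1.26) or 3 (−1.28), with array weights (−1.34) and after normexp background correction (−0.26), and that of Ccn1 under quantile scaling (−0.81).

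Calb1, Cyp26a1 and Mt2 went the other way. Calb1, the calcium buffer calbindin, read 4.46, 4.00 and 4.02 against 0.37, 0.52, −0.23 and −0.06 (16.1-fold higher), and was higher under placebo too, by 2.31. Cyp26a1, which breaks down retinoic acid, was 12.9-fold higher, with a placebo gap of 2.01. Mt2, a metallothionein, was higher by 0.68, a call lost without mutant replicate 1 (0.58) or 3 (0.63). Those without a call included Ltf (−0.79), C3 (−0.36), Ihh (0.28) and Ccnd1 (0.28). Ccnd1, a G1 cyclin, was called higher under quantile scaling (0.63). For lactoferrin (Ltf) the mutant arrays were uneven, at 1.16, 3.41 and 1.27 against 2.61, 2.20, 2.78 and 3.35, so the groups overlapped. Its 95% interval ran from −1.82 to 0.25, and without mutant replicate 2 it was called lower (−1.52, adjusted p = 0.0108). Under placebo Ltf was lower in the mutant by −2.30 (adjusted p = 0.00166).

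**Figure D3:**
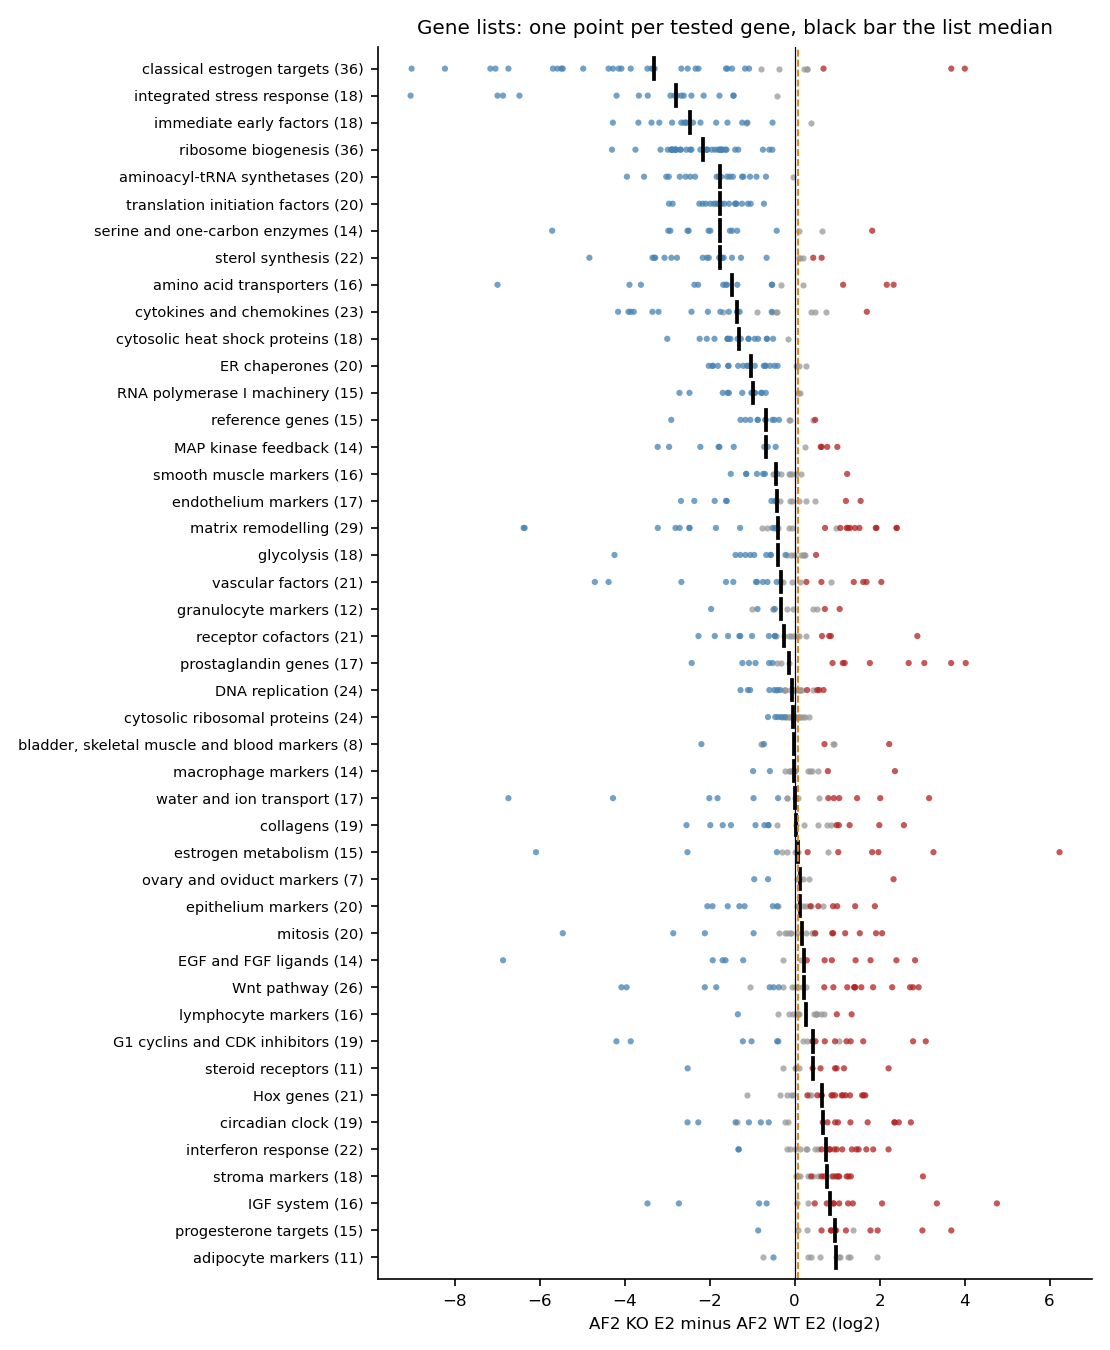
Each row is a gene list with the number of its tested genes, each point a gene at its AF2 KO E2 minus AF2 WT E2 difference (log2), blue where called lower, red where called higher and grey where not called; black bars are list medians and the dashed line is the median of all genes, 0.08. Estradiol targets (−3.31) and the integrated stress response (−2.80) have the lowest medians.

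Transcription factors switched on first by growth signals were lower as a group: 16 of 18 were lower and none higher, with a median of −2.48. Fos read 0.55, 1.11 and 0.89 in the mutant and 3.85, 3.85, 4.58 and 4.60 in the wild type (−3.37 ± 0.48). Fosl1 was lower by −4.28, Ier3 by −3.68, Egr1 by −2.89 and Jund by −2.56. Myc, which drives ribosome synthesis, was lower by −1.58 and Jun by −0.52. Fosb (−1.15, adjusted p = 0.0944) and Klf6 (0.37) were the 2 without a call. Jun lost its call without mutant replicate 2 (−0.38), under quantile scaling (−0.10) and on the authors' own scale (−0.19), and Fosb gained one without mutant replicate 3 (−1.63). Klf6 was called higher under quantile scaling (0.82) and with slide as a block (0.47). The phosphatases and Sprouty proteins that limit MAP kinase signalling were split, with 9 of 14 lower and 4 higher. Dusp8 (−3.23) and Dusp5 (−2.96) were lower, and Dusp10 (0.77) higher, a call lost under median scaling (0.55). Fosl1 and Dusp5 were each well above background on 1 mutant array.

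In the IGF system 10 of 16 genes were higher and 4 lower (median 0.83). Of its ligands Igf1 was lower, as given above, and Igf2 was higher by 0.76, with a placebo difference of 1.12. Irs2, an adaptor of the insulin and IGF receptors, read 3.99, 3.67 and 3.84 against 0.80, 0.37, 0.41 and 0.37. It was 10.2-fold higher with no overlap. Igf2r was higher by 2.06, Igf1r by 1.37, Igfbp3 by 1.26 and Insr by 0.92. Igfbp1, a binding protein, was above background on no mutant array and was at least 2.57-fold lower.

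EGF and FGF ligands moved both ways, 7 of 14 higher and 5 lower, against 30% and 26.9% of all genes. The EGF receptor ligand Hbegf was lower by −1.93, while Btc, above background on 1 wild-type array, was higher by 2.40. Fgf10, a stromal factor for epithelium, read 0.12, 0.03 and −0.13 against −2.78, −2.80, −3.05 and −2.69, or 7.13-fold higher. Fgf18 was higher by 1.79 and Fgf7 by 1.43.

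In the Wnt pathway 12 of 26 genes were higher and 7 lower, against 30% and 26.9% of all genes. Beside Wnt4, the ligand Wnt7b (−3.96) and the feedback gene Axin2 (−1.85) were lower, while the feedback genes Nkd1 (1.24) and Nkd2 (0.70) were higher. The receptor Fzd1 read 2.77, 3.16 and 2.82 against −0.23, 0.02, −0.10 and 0.29 and was 7.56-fold higher. Wnt6 (2.79), the stem cell receptor Lgr5 (2.30) and Wnt11 (1.85) were higher too. Genes downstream of the progesterone receptor were mostly higher, 11 of 15 with 1 lower (median 0.95), although Pgr itself was lower. Ptch1, the receptor of hedgehog ligands, was higher by 3.01 and Il13ra2, a decoy receptor of interleukin 13, by 1.95. Ihh itself differed by 0.28 and was not called. Under placebo 5 of the 15 were higher and none lower, against 3.38% and 5.66% of all genes under placebo.

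The integrated stress response is the program run by the transcription factor ATF4 when amino acids are short or protein synthesis is strained. Many of its targets hold a composite site for C/EBP and ATF factors, TGATGNAA on either strand. This motif was found in the 250 bases before the start of 7 of 18 genes on the list (38.9%), against 392 of 13970 tested genes with a promoter entry (2.81%). The list was drawn from knowledge of the ATF4 program, so its share is no independent evidence. The 6 promoters below are shown because they hold the motif, in capitals, and their genes were lower in the mutant; 5 are list members and Tars is a tRNA synthetase. They are RefSeq promoters on GRCm38.p6, read 5′ to 3′ on the strand of the gene up to its start.
Asns (chr6:7693210-7693459, minus strand): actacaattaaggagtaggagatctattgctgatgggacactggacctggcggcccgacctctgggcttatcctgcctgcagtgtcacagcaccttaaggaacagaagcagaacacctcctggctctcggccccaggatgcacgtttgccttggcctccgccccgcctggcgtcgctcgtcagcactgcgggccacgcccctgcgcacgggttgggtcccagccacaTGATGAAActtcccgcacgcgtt
Atf3 (chr1:191183334-191183583, minus strand): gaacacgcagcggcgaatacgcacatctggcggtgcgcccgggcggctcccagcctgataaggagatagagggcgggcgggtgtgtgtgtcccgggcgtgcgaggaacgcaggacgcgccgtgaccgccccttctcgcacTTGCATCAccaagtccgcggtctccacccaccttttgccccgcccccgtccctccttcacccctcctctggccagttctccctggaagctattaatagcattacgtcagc
Chac1 (chr2:119350992-119351241, plus strand): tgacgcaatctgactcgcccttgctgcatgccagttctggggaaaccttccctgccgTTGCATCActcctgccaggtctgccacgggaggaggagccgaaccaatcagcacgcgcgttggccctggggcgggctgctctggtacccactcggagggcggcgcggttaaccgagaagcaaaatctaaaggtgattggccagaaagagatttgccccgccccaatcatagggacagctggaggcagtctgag
Fgf21 (chr7:45615491-45615740, minus strand): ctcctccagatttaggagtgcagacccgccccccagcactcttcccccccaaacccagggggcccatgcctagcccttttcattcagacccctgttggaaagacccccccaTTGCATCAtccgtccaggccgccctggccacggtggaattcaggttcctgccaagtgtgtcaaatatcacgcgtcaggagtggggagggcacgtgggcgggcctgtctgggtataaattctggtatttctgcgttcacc
Slc7a11 (chr3:50443614-50443863, minus strand): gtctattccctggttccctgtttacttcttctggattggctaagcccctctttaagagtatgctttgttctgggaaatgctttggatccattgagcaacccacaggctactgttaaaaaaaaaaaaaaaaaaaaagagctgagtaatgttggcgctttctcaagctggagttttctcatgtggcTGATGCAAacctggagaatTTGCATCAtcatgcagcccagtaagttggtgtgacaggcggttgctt
Tars (chr15:11399659-11399908, minus strand): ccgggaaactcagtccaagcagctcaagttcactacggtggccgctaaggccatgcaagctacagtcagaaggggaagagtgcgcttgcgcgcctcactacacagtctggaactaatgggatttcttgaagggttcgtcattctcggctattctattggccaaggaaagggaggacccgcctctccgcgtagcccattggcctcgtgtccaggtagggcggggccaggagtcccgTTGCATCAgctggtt

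The nearest match began 23 bases before the start in Asns, 15 in Tars, 47 in Slc7a11, which has another at 66, 110 in Atf3, 139 in Fgf21 and 193 in Chac1. Among genes called lower 2.44% held the motif (110 of 4516), among genes called higher 2.78% (123 of 4420) and among the rest 3.16% (159 of 5034). A match is a sequence of letters and was not measured here as a bound site. The full estrogen response element, GGTCA followed after any 3 bases by its inverted copy TGACC, was in 0 of 31 promoters of the estradiol targets and in 0.0501% of all promoters. A motif this rare cannot tell 31 promoters from the rest. The E-box CACGTG was in 10.9% of promoters of genes called lower, 7.81% of those called higher and 7.59% of the rest.

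Of the 18 genes of the integrated stress response 17 were lower and none higher, with a median of −2.80. The median level of the list was 1.16 to 1.45 on the mutant arrays and 4.44 to 5.12 on the wild-type arrays. Chac1, which degrades glutathione, read −1.46, −0.66 and −1.34 against 5.46, 5.22, 5.78 and 4.84 and was 89.3-fold lower. Fgf21, a secreted metabolic hormone, was above background on no mutant array and on all wild-type arrays, at least 31.5-fold lower. Slc7a11, the cystine carrier, was lower by −7.00 and was above background on 1 mutant array. It was also lower under placebo, by −3.44.

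Asns, which makes asparagine, was at 1.58, 1.74 and 1.18 in the mutant and at 6.09, 5.63, 6.07 and 4.97 in the wild type. It was 18.3-fold lower. Atf4 itself was at 5.1, 5.1 and 5.0 against 8.2, 7.9, 8.1 and 7.7, a difference of −2.93 ± 0.16. Trib3 was lower by −3.67, Sesn2 by −3.46 and Atf3 by −2.61. Ddit4 was the 1 gene without a call (−0.41). Under placebo Asns and Atf4 differed by −0.09 and −0.07.

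Enzymes and carriers that supply amino acids followed the same side. Of 14 enzymes of serine and one-carbon metabolism 11 were lower and 1 higher (median −1.76). Mthfd2, a mitochondrial folate enzyme, read −2.76, −2.93 and −3.36 against 2.67, 2.36, 2.86 and 2.88, or 52.3-fold lower. Phgdh (−2.98) and Psat1 (−2.93), which make serine, were lower. Among 16 amino acid transporters 11 were lower and 3 higher. Slc7a5, a carrier of large neutral amino acids, was at −0.98, −0.75 and −1.01 against 3.25, 2.65, 2.99 and 3.00 (14.8-fold lower). Slc43a1 (2.33) and Slc7a8 (2.17) were higher.

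Genes that build the translation machinery were mostly lower. Of 20 aminoacyl-tRNA synthetases, which load amino acids on tRNA, 19 were lower and none higher (median −1.76), and Qars was not called (−0.04). The direction of Qars turned with the scaling, from −0.26 to 0.42. Aars was 15.4-fold lower, at 2.35, 2.05 and 1.71 against 6.25, 6.04, 6.02 and 5.65. Tars read 2.40, 2.46 and 2.44 against 5.45, 5.40, 5.59 and 5.15.

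All 36 tested nucleolar factors of ribosome assembly were lower (median −2.15), against 26.9% of all genes. In all 36 the groups did not overlap, against 54% of all genes. Their median level was 1.14 to 1.32 on the mutant arrays and 3.78 to 3.86 on the wild-type arrays. Rrp12, needed to export ribosomal subunits, had the largest difference, at −3.26, −3.31 and −3.36 against 1.07, 1.22, 0.82 and 0.87 (19.7-fold lower). Npm1 had the smallest, −0.53, which was not called on the authors' own scale (−0.24). Of 15 RNA polymerase I factors, which transcribe ribosomal RNA, 13 were lower (median −0.99), led by Polr1e (−2.71). All 20 translation initiation factors were lower (median −1.76). Eif4ebp1, which restrains cap-dependent initiation, was among them at −2.96, and Eif2s2 at −2.87.

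The proteins of the ribosome itself stood apart from the factors that assemble it. All 24 cytosolic ribosomal protein genes had a 95% interval within 2-fold, 5 were lower and none higher. Their median was −0.04, and its sign changed with the scaling, from −0.25 to 0.15. Rpl3 differed by −0.02 and Rplp0 by −0.13.

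Chaperones were lower in both compartments. Of 18 cytosolic heat shock proteins 17 were lower (median −1.31), led by Hsph1 (−3.00) and Hspa4 (−2.24). Of 20 chaperones of the endoplasmic reticulum 17 were lower and none higher (median −1.02). Hspa5, the main chaperone there, read 4.41, 4.73 and 4.45 against 6.26, 6.71, 6.30 and 6.10, or 3.5-fold lower. Dnajb9, Pdia4 and Sel1l were not called.

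The sterol pathway was lower in 17 of 22 genes and higher in 2 (median −1.75). Sqle, the squalene epoxidase, was at 0.90, 0.70 and 0.33 against 4.16, 3.97, 3.96 and 3.87, which is 10.2-fold lower with no overlap. Cyp51, the lanosterol demethylase, was lower by −3.30. Pmvk (0.44) and Ebp (0.64) were higher, calls lost under median scaling (0.22 and 0.42). That of Ebp was also lost without mutant replicate 1 (0.45) or 2 (0.68) or wild-type replicate 3 (0.65) or 4 (0.46). In glycolysis 10 of 18 genes were lower and 1 higher (median −0.39). Hexokinase 2 (Hk2) was 18.9-fold lower, while the glucose carrier Slc2a1 differed by −0.08 and was not called, except under median scaling (−0.30).

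Cell cycle genes were called in both directions at this early time, as were all genes (26.9% lower and 30% higher). Of 24 DNA replication genes 7 were lower and 4 higher (median −0.06, which turned to 0.13 under another scaling). Pcna, the sliding clamp, was lower by −1.28 and Mcm7 higher by 0.68. Of 20 mitotic genes 7 were higher and 4 lower. Their median of 0.16 turned negative under quantile (−0.10), median (−0.05) and the authors' own scaling (−0.06). Tpx2 (−2.86) and Birc5 (−2.11) were lower and Bub1b (2.06) and Cenpa (1.92) higher, while Mki67 (0.49) and Top2a (−0.23) were not called. Without mutant replicate 1 Mki67 was called higher (0.85).

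Among G1 regulators the CDK inhibitor gene Cdkn1a read 0.91, 0.20 and 0.61 in the mutant and 4.44, 4.54, 4.37 and 4.38 in the wild type. It was 14.5-fold lower, and Gadd45a was lower by −4.20. Trp53inp1 was higher by 3.09, Ccng2 by 2.79, and the CDK inhibitor genes Cdkn2c by 1.61 and Cdkn1b by 1.32, while the antiproliferative gene Btg2 was lower by −1.22. Of these 19 genes 9 were higher and 6 lower, against 30% and 26.9% of all genes.

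Of 21 genes that act on vessels 11 were lower and 6 higher, against 26.9% and 30% of all genes. Vegfa, which makes vessels leaky and grow, was at 1.84, 2.30 and 1.87 against 6.36, 6.41, 6.18 and 6.58 and was 20.8-fold lower. Its relative Pgf read −0.80, −1.35 and −1.05 against 3.84, 3.84, 3.60 and 3.29 and was 26.1-fold lower. It was slightly higher in the mutant under placebo, by 0.68. The nitric oxide synthase gene Nos3 was lower by −2.67. Angpt1 (2.04), Vegfc (1.69) and Edn1 (1.61) were higher.

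Water channels went both ways. Aqp8 was 107-fold lower, at −3.74, −3.98 and −4.24 against 3.11, 2.87, 3.10 and 1.92, and Aqp5 was 19.4-fold lower. Aqp3 was lower by −2.01, while Aqp11 was higher by 3.16 and Aqp1 by 1.05. Over the 17 water and ion transport genes 6 were higher and 6 lower, against 30% and 26.9% of all genes.

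Prostaglandin genes were split, 8 of 17 higher and 6 lower, against 30% and 26.9% of all genes. Ptgfr, the receptor for prostaglandin F2α, read 0.39, 0.07 and 0.16 in the mutant and −3.94, −3.53, −4.01 and −3.81 in the wild type (16.3-fold higher). Ptger2 was 12.9-fold higher, Hpgd, which inactivates prostaglandins, higher by 3.05, and Ptges2 lower by −2.42. Ptgs2 was not called (−0.13).

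Of 29 matrix genes 11 were higher and 11 lower, against 30% and 26.9% of all genes. Adamts4, a protease of proteoglycans, was 83.3-fold lower, at −0.36, −0.20 and −0.69 against 6.34, 6.00, 6.07 and 5.45. Has1, which makes hyaluronan, was 82-fold lower. In contrast Has2 was higher by 1.26, Mmp9 and Mmp11 by 2.40 each and Lox by 1.52. Collagens were split too, 8 of 19 lower and 5 higher, from −2.55 for Col6a3 to 2.57 for Col5a2.

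Of 23 cytokines and chemokines 14 were lower and 1 higher (median −1.35). Il11, needed for decidualisation, was at −2.95, −3.45 and −3.58 against 0.66, 0.61, 0.34 and 0.23 and was 13.8-fold lower. Csf3 was 14.5-fold lower and was lower under placebo too, by −2.44. Il6, above background on 1 mutant array, was lower by −4.16 and Lif, the implantation cytokine, by −2.43, while the alarmin Il33 was higher by 1.70. Replicate 2 was the highest mutant array for several of them: Ccl2 read −2.93, −0.14 and −2.60 against 1.78, 0.98, 1.60 and 0.89. Of 14 macrophage markers 2 were higher and 2 lower, and their median level spanned 0.12 to 1.16 on the mutant arrays and 0.56 to 0.83 on the wild-type arrays. The part of such cells in the cytokine result was not tested.

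Genes induced by interferon were mostly higher, 12 of 22 with 2 lower (median 0.73). Ifit2 read −0.79, −0.77 and −0.57 against −2.80, −3.24, −2.77 and −2.88, or 4.63-fold higher. The median of the list was −0.08 within slide 1, 0.98 within slide 3 and 1.19 within slide 4. Mx1 (−1.33) and Bst2 (−1.31) were lower.

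Of 15 genes of estrogen metabolism and the Ah receptor pathway 6 were higher and 3 lower, against 30% and 26.9% of all genes. Akr1c14, a hydroxysteroid dehydrogenase, was 68.1-fold lower, at −4.89, −3.43 and −3.91 against 1.79, 1.76, 2.17 and 2.34. It was lower by −4.13 under placebo. Ahrr, a repressor of the Ah receptor that was above background on 1 wild-type array, was higher by 3.27, while Tiparp, a target of that receptor, was lower by −2.52. In the circadian clock 10 of 19 genes were higher and 6 lower. Per3 (2.74), Dbp (2.45) and Nr1d1 (2.35) were higher and Bhlhe40 (−2.27) and Ciart (−2.52) lower. The time of day of tissue collection is not given in the sources used here.

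Markers of the uterus were measured in both groups. Of 7 tested genes of ovary and oviduct 1 was higher and 2 lower, and of 8 of bladder, muscle and blood 2 were higher and 2 lower. Over all genes 30% were higher and 26.9% lower. Hox genes of several clusters were higher in 14 of 21 and lower in none (median 0.63). Hoxa5, Hoxc6, Hoxb3 and Hoxb5 had the largest called differences. The Müllerian tract genes Hoxa10 and Hoxa11 were higher by 0.95 and 0.63. Of 18 stromal markers 11 were higher and none lower (median 0.77), led by Nt5e (3.02), with a median level of 3.36 to 3.74 in the mutant and 2.48 to 2.83 in the wild type. In a whole uterus, more cells of a type and more RNA per cell cannot be told apart. Of 20 epithelial markers 6 were higher and 7 lower, near the 30% and 26.9% of all genes, with median levels of 1.89 to 2.19 and 2.17 to 2.32. Krt8 (0.26) and Epcam (0.20) were not called, but under quantile scaling both were higher (0.72 and 0.35).

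Smooth muscle markers were lower in 7 of 16 and higher in 1 (median −0.45). Actg2 was lower by −1.50, and Cnn1, Lmod1 and Tpm2 were also called lower, while Myh11 (−0.33) and Smtn (−0.06) were not called. Myh11 was called lower under median scaling (−0.55) and with array weights (−0.43). Smtn was called higher on the authors' own scale (0.40). Of 17 endothelial markers 8 were lower and 2 higher. Eng was lower by −2.68, and Plvap, Lyve1 and Kdr were also called lower. Cdh5 (0.11) and Tek (−0.06) were not called. Under quantile scaling Cdh5 was called higher (0.26). Fat cell genes were uneven between arrays of 1 group: their median level ran from 0.17 to 1.88 in the mutant and from −1.19 to 1.99 in the wild type, and 1 of 11 was called. The common reference genes were not stable, with 11 of 15 lower (median −0.68). Tfrc was lower by −2.91, Hprt by −1.27, Gapdh by −1.16 and Actb by −0.87.

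The same genotypes without hormone differed far less. Under placebo 2430 genes were called (9.04%), 909 higher (3.38%) and 1521 lower (5.66%). Of the genes called under estradiol 947 were called in the same direction under placebo, 6.19% of the estradiol calls and 39% of the placebo calls. In this set 310 were lower, with 155 of them further apart under estradiol and 11 closer together, and 637 were higher, with 315 further apart and 3 closer. The genotype difference changed with hormone for 13971 genes (52%), 7787 upward and 6184 downward.

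Tmem213 was lower in both states. It differed by −8.30 under estradiol and by −5.65 under placebo, and the change between them was −2.66 (adjusted p = 5.02e-06). Ppp2r2c differed by −8.32 and −4.94. Slc5a11, the sodium and inositol carrier, was higher by 6.11 and 3.67, a change of 2.43 (adjusted p = 0.00732).

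A set of 680 genes was lower under placebo and higher under estradiol in the mutant, and 461 of them had a mean level under −2, near background. A further 531 genes lower under placebo were not called under estradiol. In the other direction 125 genes were higher under placebo and lower under estradiol, 12 of them this dim. The level of background moved with this pattern. The median of 367 chemosensory receptor genes, which a uterus is not known to use, was −4.28 ± 0.23 in AF2 WT PLB and −4.70 ± 0.09 in AF2 KO PLB (SD, n = 4). It was −4.53 ± 0.17 (SD, n = 4) in AF2 WT E2 and −4.19 ± 0.26 (SD, n = 3) in AF2 KO E2. The part of background in these calls was not tested.

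**Figure D4:**
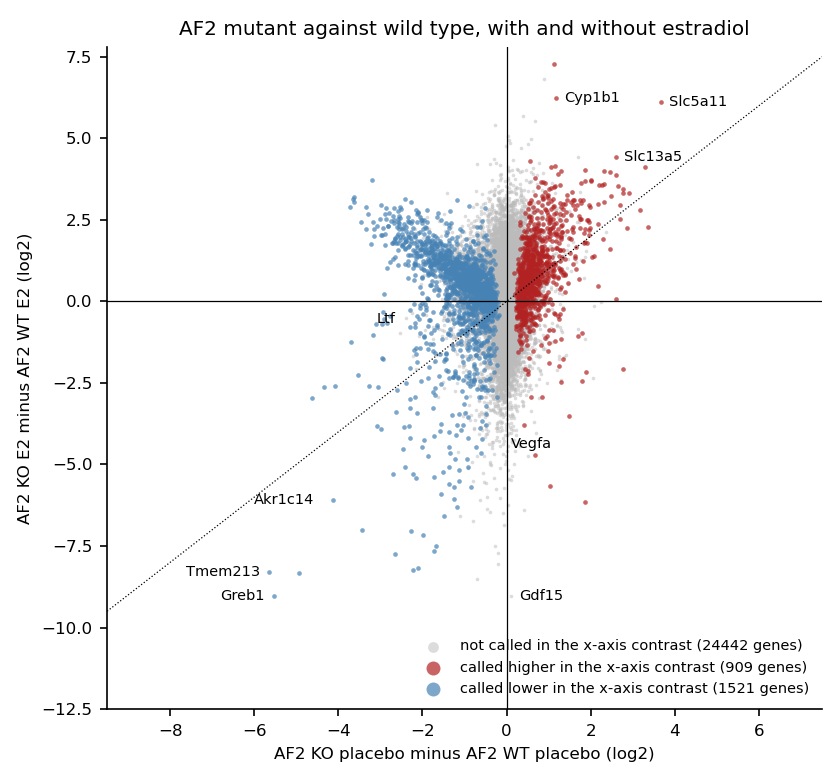
Each point is a tested gene, with AF2 KO minus AF2 WT under placebo (log2) on the x axis and under estradiol (log2) on the y axis; the dotted line marks equal differences. Blue (1521 genes) and red (909) mark genes called lower and higher under placebo: Greb1, Tmem213 and Akr1c14 are low on both axes and Gdf15 only on the y axis, and a wing of blue points rises to the upper left.

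The MISS mutant under estradiol was compared in the same way. MISS KO E2 minus MISS WT E2 called 760 genes (2.83%), 235 higher and 525 lower. The difference between mutant and wild type was not the same in the 2 lines for 12100 genes (45%): 6461 lay higher in the AF2 line and 5639 lower. The lines were kept on different substrains, so line and substrain cannot be told apart in that test. The 2 comparisons share no array. Both lines were lower for 355 genes, 4.91% of the AF2 calls and 67.6% of the MISS calls, and 223 of them were further down in the AF2 line and 7 in the MISS line. Both were higher for 196, 2.43% and 83.4% of the calls, with 129 further up in the AF2 line.

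Gdf15, Greb1, Pgr and Vegfa differed by −0.81, −0.41, 0.10 and −0.04 in the MISS line, none of them called. Kallikreins were an exception, with Klk1 at −1.50 (adjusted p = 7.45e-06), and so was Akr1c14, at −3.34 (adjusted p = 2.47e-06). Ramp3 was lower by −1.26 and Il11 by −1.26 in the MISS line. Cyp26a1 was higher in both lines, by 1.48 in MISS. Chac1 went in opposite directions, higher by 1.11 in the MISS mutant (adjusted p = 0.00963) and 89.3-fold lower in the AF2 mutant.

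Chaperones of the endoplasmic reticulum were lower in the MISS line too, 11 of 20 genes with a median of −0.44, against 1.95% of all genes. Hspa5 differed by −0.71 in the MISS line and by −1.81 in the AF2 line, and the lines differed (adjusted p = 9.6e-06). Dnajb9, a cochaperone of Hspa5, was lower by −0.89 in the MISS mutant and not called in the AF2 mutant, where its 95% interval ran from −0.09 to 0.29. It was called higher there under quantile scaling (0.25), on the authors' own scale (0.28) and with the percentile over probes above background (0.29). The lines differed for it as well (adjusted p = 3.9e-07). In contrast the 36 ribosome assembly factors were all lower in the AF2 line by more than in the MISS line.

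**Figure D5:**
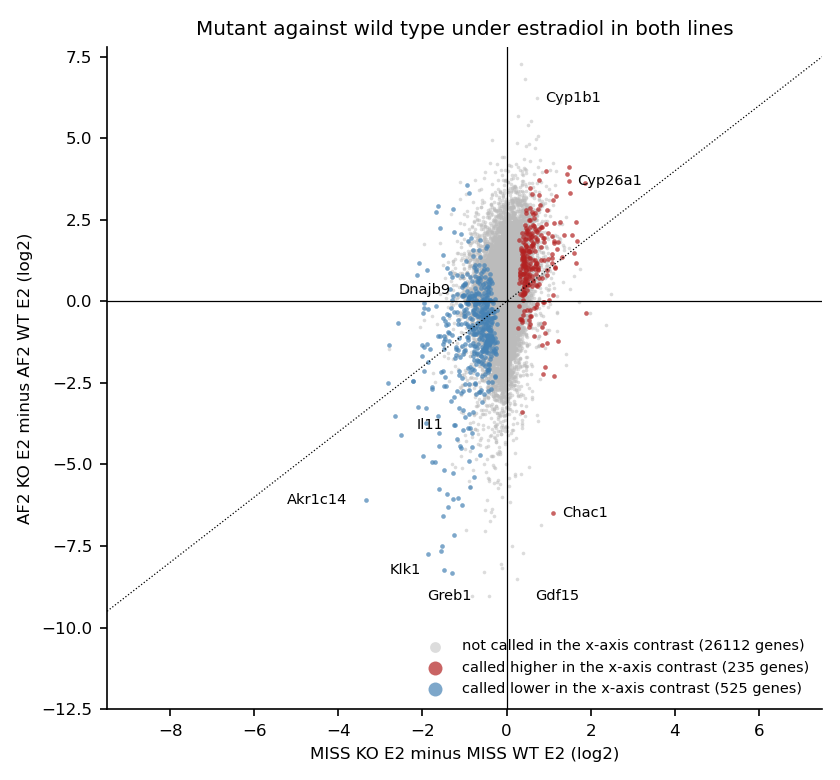
Each point is a tested gene, with mutant minus wild type under estradiol in the MISS line (log2) on the x axis and in the AF2 line (log2) on the y axis; the dotted line marks equal differences. Most points stretch along the y axis; Klk1, Akr1c14 and Il11 lie low on both axes, and Chac1 is called higher in MISS and lower in AF2.

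Some genes were measured in 1 group only. On every wild-type array but on no mutant array 54 genes were well above background. On every mutant array but on no wild-type array there were 529 such genes. Among the 23220 genes above background on all 7 arrays 6534 were higher and 6963 lower. Dim genes with a mean level under −2 leaned to the higher side, 3323 higher and 1167 lower of 10529, whereas of the 16343 brighter genes 4745 were higher and 6068 lower. The median difference of the dim genes was 0.27. Of the 367 chemosensory receptor genes 90 were higher and 15 lower, with a median of 0.35. The part of background in the higher calls was not tested. Of 3930 long intergenic RNA features 1058 were higher and 493 lower, and of the 1410 brighter ones 398 and 289.

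Whether called or not, 13434 genes had a 95% interval that lay within 2-fold in either direction. This set overlaps the called genes and holds the 5 ribosomal protein genes called lower. Besides the ribosomal proteins, the 13434 genes included Esr2, Dnajb9 and Ncoa1. Where a gene had several tested probes they gave the same direction for 6329 of 8356 genes, and in 203 genes probes were called in opposite directions.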

How the data were processed

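Cy3-labelled uterine RNA was measured on 31 single-colour Agilent arrays. The deposited scanner files of the authors (Agilent Feature Extraction 10.10.1.1) hold background-subtracted intensity per spot, per the file headers, with marks for outlier spots and signal well above background. The series matrix of the authors, deposited as log2 values on their own scale, served as an alternative. The submitters' processing notes also name limma.

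Outlier spots were removed, spots of a probe averaged as log2, and the 75th percentile of each array subtracted. Of 55681 probes 40336 were tested, those well above background on all arrays of some group. The brightest tested probe stood for its gene (26872 genes). limma 3.58.1 (R 4.3.3) fitted 8 group means over 31 arrays (23 residual degrees of freedom). P-values were adjusted by Benjamini-Hochberg. A bound ("at least") sets the brighter group against the dimmest signal above background. On simulated data for this comparison, 70 of 100 genes with a log2 change of 1 and 90 of 100 with 2 were called, with 10 false calls among 26872 genes. The simulated noise was independent between arrays, without slide effects or shifts of background or scaling, and no other genes changed. The false calls among the real data were therefore not measured by it. The number of arrays limits the precision.

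Replicates were numbered in order of deposition. Probe positions are those of the array on mm9, promoters those of RefSeq on GRCm38.p6. Named were the genes with the largest called differences, all estradiol targets and steroid receptors, and the largest called members of other lists. Some genes that this rule takes are not reported here, and a further few were named after their values were seen. The comparison and its lists were chosen with earlier results of these data known. Alternatives covered scaling, background, filters, probe choice, slide, arrays in the fit and leaving out each array.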

Additional observations from a re-analysis of the deposited data

Results flagged for a closer look

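The difference between AF2 mutant and wild type changed between placebo and estradiol for 13971 genes by a test of that change, and it differed between the AF2 and MISS lines under estradiol for 12100 genes.

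Each of 202 named genes and 3 array measures was examined for an array far from the other 3 in AF2 WT E2 by Dixon's test. Chance gives about 1 in 20, and 11 genes (5.37%) were found. In 8 of the 11 the array was replicate 4. It was the highest for Cldn1 (−4.74, others up to −7.35), Esr1 (3.65, others up to 3.14), Insr (0.74, others up to −0.09) and Tek (−0.35, others up to −0.48). It was the lowest for Gapdh (7.79, others from 8.15), Msc (−6.60, others from −5.76), Muc1 (−1.52, others from −0.97) and Ppp2r2c (3.49, others from 3.73). Replicate 1 was the highest for Hpgd (−1.27, others up to −1.53) and Irs2 (0.80, others up to 0.41), and replicate 2 the lowest for Jun (5.73, others from 5.87). AF2 KO E2 holds 3 arrays and was not examined.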

How the results depend on the processing

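Replicate numbers record the deposition order. In AF2 WT E2 they match the slide numbers, but in AF2 KO E2 replicates 2 and 3 lie on slides 3 and 4. No paired analysis by replicate number was therefore made. Both groups share 3 slides, and fits with slide as a fixed and a random block called 17549 and 17231 genes, against 15303. Leaving out each array in turn called 13968 to 15013 genes, 7024 to 7830 higher and 6789 to 7317 lower. It gave 6978 to 7432 genes at 2-fold, 12185 to 13060 with an interval within 2-fold, and 874 to 962 called alike under placebo. For genes lower under placebo and higher under estradiol it gave 505 to 774, for changes with hormone 12834 to 13820 and for differences from the MISS line 11141 to 11936. The 947 genes called alike under placebo became 1581 under median scaling, 1879 and 1764 with slide as a fixed and a random block, and 1510 with array weights. The 680 genes lower under placebo and higher under estradiol became 435 under median scaling, 1115 with the percentile over probes above background, 449 among genes above background on all 7 arrays, 230 among genes with a mean level of at least −2, and 1418 and 1308 with slide as a fixed and a random block. The 2-fold count was 4486 after normexp background correction and 4545 at a mean level of at least −2, where 4877 genes were higher. With fewer genes tested such counts fall. The cause of the other shifts was not tested. Among the named genes, 4907 values under an alternative were counted as unchanged, 32 lost a call and 57 gained one. The unchanged include plain differences within each of the 3 shared slides. Those carry no p-value, so they could change direction but could not lose or gain a call. No called gene changed direction with any alternative run.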
